A study of Homo sapiens with 6 samples.

Results

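Glycolysis and hypoxia-inducible genes were examined as a list of 36 genes, chosen by name: the oxygen sensors, sugar and lactate transporters, glycolytic enzymes and hypoxia-inducible genes of a pathway list. Of these, 35 had a probe of their own among the 18255 genes measured, and for each the brightest of its probes, judged by the mean of all 6 arrays, was used. PGAM1, a glycolytic mutase gene, was not used, because each of its probes also carried the symbol of PGAM4. The members and the other gene lists below were chosen with earlier results of these data known. Shares of called members set against all genes are therefore descriptions and not tests of the list. The RNA came from THP-1, an established cell line grown from a human monocytic leukaemia and kept in medium with 0.5% serum, and was hybridised to single-colour Cy5 arrays, 2 per group. LC53 plus LPS cells were given the compound LC53 at 5 µM and, 15 min later, 50 ng/ml lipopolysaccharide (LPS, a bacterial outer membrane component) for 8 h. LPS cells had the same LPS treatment alone, and resting cells had neither. No group received LC53 alone, so an action of the compound without LPS was not measured. The series title names theissenolactone C, and no structure is given here for LC53. Nothing in the labels says that replicates were grown as separate cultures, so p-values measure only the spread between these arrays, which may be technical.

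Glycolysis converts glucose to pyruvate in the cytosol, and lactate dehydrogenase turns pyruvate into lactate, which leaves the cell through monocarboxylate transporters. Hypoxia-inducible factor joins an oxygen-regulated alpha subunit, such as the product of HIF1A, to a stable partner, binds the letters ACGTG or GCGTG in DNA and induces many of these genes. Prolyl hydroxylases of the EGLN family mark the alpha subunit for degradation when oxygen is present. In macrophages and monocytes, LPS is known to raise HIF1A and glucose use through NF-kB and metabolic signals.

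Promoter windows are shown for the members that passed the test in a comparison and had an entry, and for the pair of other members with the most matches to that motif. Each window is the 250 bases before a RefSeq transcript start on GRCh38.p14, printed on the gene's own strand. Capitals mark the letters ACGTG or GCGTG and their reverse complements CACGT and CACGC, and CACGTG counts as a match on both strands. The windows lie at chr9:133479100-133479349 on the minus strand (SLC2A6), chr17:82234649-82234898 on the plus strand (SLC16A3), chr15:72231191-72231440 on the minus strand (PKM), chr2:86441121-86441370 on the plus strand (KDM3A), chr10:131981924-131982173 on the minus strand (BNIP3) and chr2:74834920-74835169 on the plus strand (HK2). Of several starts of a gene, the one with the most matches is shown.
SLC2A6: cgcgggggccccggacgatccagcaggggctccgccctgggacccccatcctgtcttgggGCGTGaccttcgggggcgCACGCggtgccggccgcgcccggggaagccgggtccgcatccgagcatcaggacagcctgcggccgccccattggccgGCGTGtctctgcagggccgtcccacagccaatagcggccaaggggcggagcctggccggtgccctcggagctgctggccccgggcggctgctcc
SLC16A3: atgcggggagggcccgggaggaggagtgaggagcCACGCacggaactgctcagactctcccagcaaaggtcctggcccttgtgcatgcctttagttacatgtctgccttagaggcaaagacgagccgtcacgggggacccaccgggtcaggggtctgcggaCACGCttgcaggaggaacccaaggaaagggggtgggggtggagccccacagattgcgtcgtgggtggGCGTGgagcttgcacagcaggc
PKM: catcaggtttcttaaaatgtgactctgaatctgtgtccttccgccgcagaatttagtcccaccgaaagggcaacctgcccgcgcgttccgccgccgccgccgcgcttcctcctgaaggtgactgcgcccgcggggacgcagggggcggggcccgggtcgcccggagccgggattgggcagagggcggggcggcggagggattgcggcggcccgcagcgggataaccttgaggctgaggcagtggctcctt
KDM3A: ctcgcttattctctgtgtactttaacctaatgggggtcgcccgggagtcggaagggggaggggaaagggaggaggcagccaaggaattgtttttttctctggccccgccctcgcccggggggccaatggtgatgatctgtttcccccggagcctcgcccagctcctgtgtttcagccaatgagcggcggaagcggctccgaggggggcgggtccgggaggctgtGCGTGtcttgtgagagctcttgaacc
BNIP3: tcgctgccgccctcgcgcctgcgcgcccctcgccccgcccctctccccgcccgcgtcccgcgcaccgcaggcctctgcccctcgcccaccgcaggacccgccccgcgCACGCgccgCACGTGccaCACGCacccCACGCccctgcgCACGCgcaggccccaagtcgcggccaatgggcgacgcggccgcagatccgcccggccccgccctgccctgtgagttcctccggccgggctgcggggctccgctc
HK2: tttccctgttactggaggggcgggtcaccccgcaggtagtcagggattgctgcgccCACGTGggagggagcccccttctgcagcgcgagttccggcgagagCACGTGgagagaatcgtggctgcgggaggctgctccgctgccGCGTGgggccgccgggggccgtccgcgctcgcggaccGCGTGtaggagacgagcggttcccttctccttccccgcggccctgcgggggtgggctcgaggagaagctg

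The SLC2A6 and SLC16A3 windows held 3 matches each, the KDM3A window 1 and the PKM window 0. SLC2A6 had 1 start, while the SLC16A3 window was the best of 5, of which 3 held a match. A count from the best of several starts is not like the share over all windows below. BNIP3 and HK2, which did not pass the test in any comparison, had 6 matches each. The 31 members with an entry had 53 windows. At least 1 match was found in 36 of these windows (67.9%) and in 43.2% of all 35116 windows, and 7.76% of all windows held 3 or more. The NF-kB consensus, searched on both strands, was found in 13.2% of the member windows and in 9.96% of all windows. A match is a description of the letters and not a site, and which start these cells used was not measured. SLC2A3, VEGFA, BNIP3L and NDRG1 had no table entry.

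Median probe intensity lay between 84.4 and 124.0 on the 6 arrays, and the log2 median was highest on LPS replicate 2 (6.95) and lowest on LPS replicate 1 (6.40). The number of arrays limits the precision of every value. Between 38 and 95 probes per array were saturated. Among the members, ENO1, encoding the main enolase, was saturated on all 6 arrays, at 59353 to 73103, so its changes were not measured. ALDOA (aldolase A) and GAPDH were saturated on LC53 plus LPS replicate 1 alone. Of the treatment check genes, TNF was higher on the LPS arrays than on the resting arrays. The labels do not say how LC53 should move TNF or HMOX1, so these genes do not check the LC53 label. TNF, a cytokine gene induced by LPS, had intensities of 4263 and 4533 on the LC53 plus LPS arrays, compared with 13375 and 13751 for LPS and 683 and 873 for resting cells. HMOX1, a stress-responsive haem oxygenase gene, had 7712 and 7642 on the LC53 plus LPS arrays, compared with 886 and 1019 for LPS and 73.4 and 78.7 for resting cells. Differences below are log2 differences of group means ± SE from limma, and a gene was called where the Benjamini-Hochberg adjusted p over all 31741 probes was below 0.05. In such bulk RNA, fewer cells with a transcript and less of it per cell cannot be told apart.

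LPS against resting cells asked how the list differed after LPS. LPS raised 3 of the 4 transporter genes (SLC2A3, SLC2A6 and SLC16A3), 1 of the 6 genes of lower glycolysis with a probe (PKM) and 1 of the 10 hypoxia-inducible genes (VEGFA), and lowered KDM3A. None of the 10 genes of upper glycolysis, the 2 genes of pyruvate use or the 3 genes of oxygen sensing passed limma's adjusted threshold. In all, 5 of 35 members rose and 1 fell, which is 17.1% of the members against 7.56% of all genes called, with 4.46% of all genes higher and 3.1% lower. At an unadjusted limma p below 0.05, 11 of 35 members passed, against 3993 of all 18255 genes. The arrays of the LPS and resting groups did not overlap for 22 members, 11 higher and 11 lower, against 50% of all genes. The median difference of the members was 0.0011, and that of all genes -0.07. With quantile normalization, median centring or cyclic loess in place of the deposited scale, the split was 7 higher and 3 lower, and without LPS replicate 2 it was 3 higher and 3 lower.

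**Figure D1:**
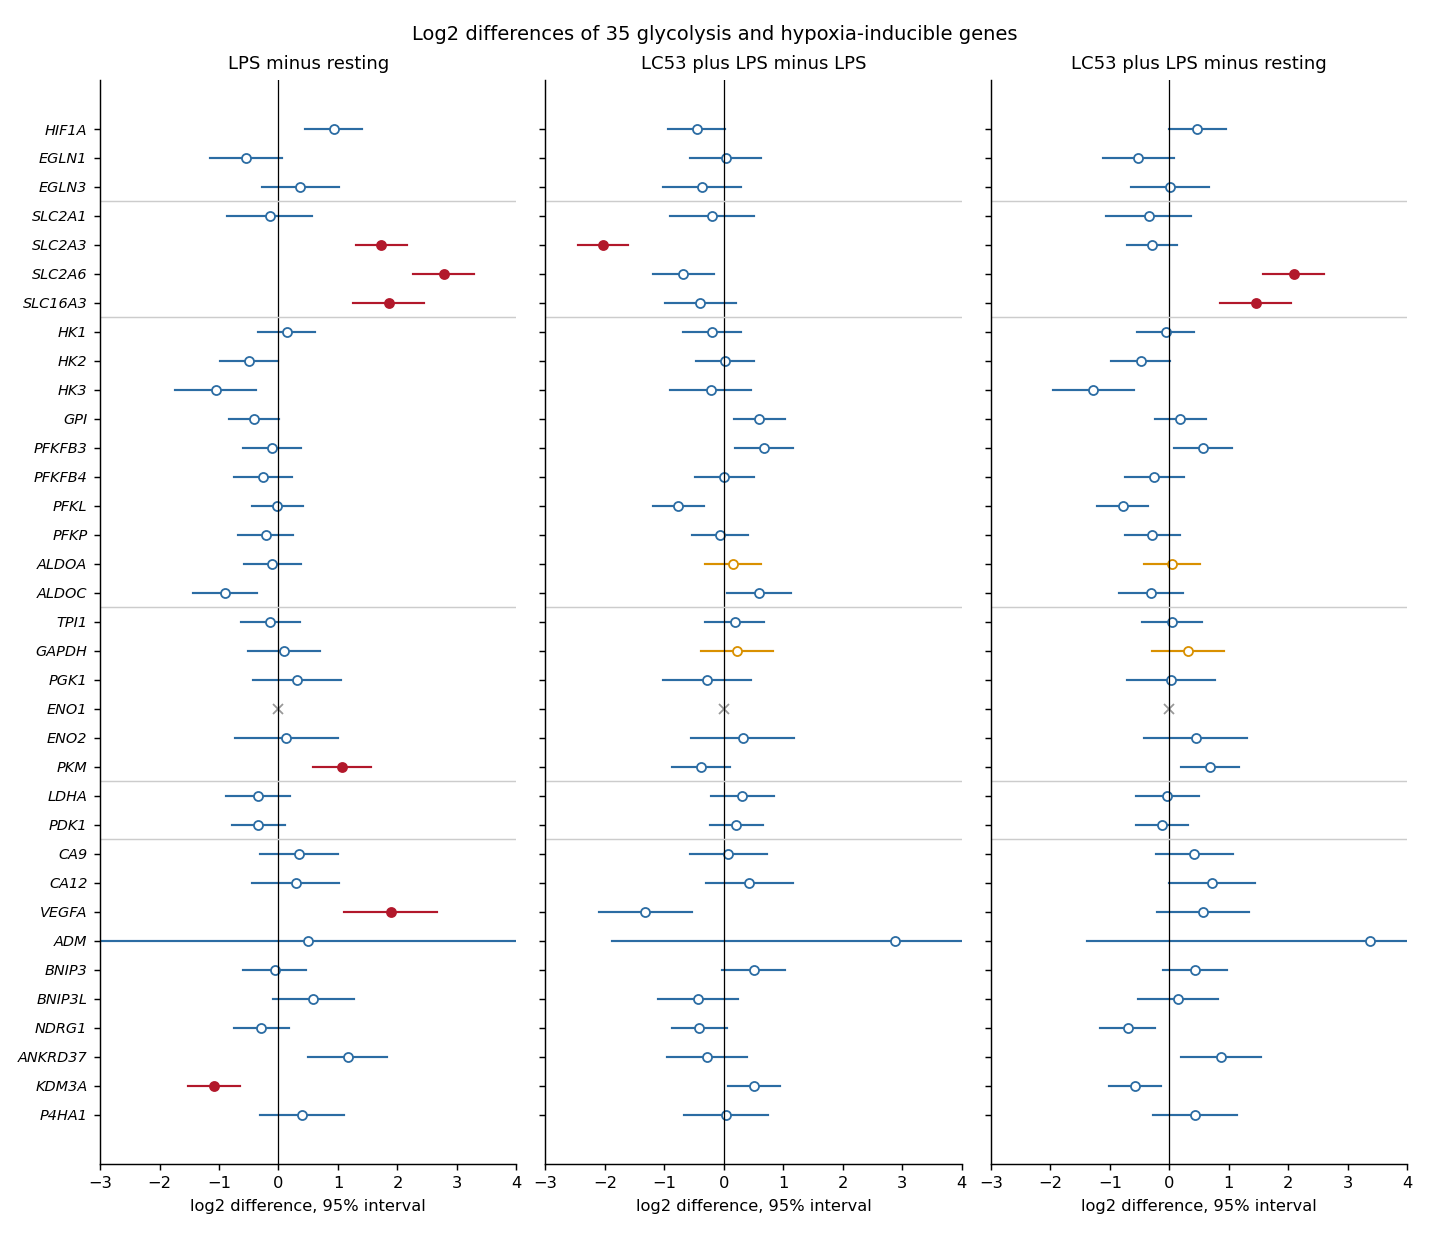
Log2 difference (x axis) of each of the 35 measured members (y axis, grouped by role) in the 3 comparisons, with 95% intervals as lines. Filled red points passed the adjusted threshold (6, 1 and 2 members from left to right), open blue points did not, orange marks a difference that is a bound because of saturation, and a cross marks ENO1, which was not measured. Intervals of ADM run past the x axis.

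The largest LPS rise was that of SLC2A6, which encodes a hexose transporter found on lysosomes. It had intensities of 6188 and 7724 on the LPS arrays, against 1011 and 1009 on the resting arrays. The log2 difference was 2.78 ± 0.21 (95% interval 2.27 to 3.29, limma adjusted p = 0.00191), or 6.85-fold. Both LPS arrays lay far above both resting arrays, and the call held in every alternative run, including each array left out. SLC16A3 encodes the lactate exporter MCT4, a known target of hypoxia-inducible factor. Its intensities were 3164 and 4158 on the LPS arrays, against 877 and 1149 on the resting arrays, a log2 difference of 1.85 ± 0.24 (adjusted p = 0.0115). The groups were well apart, although the 2 LPS arrays also differed from each other.

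SLC2A3 encodes GLUT3, a high-affinity glucose transporter. It had 159 and 163 on the LPS arrays, against 49.6 and 47.4 on the resting arrays, a log2 difference of 1.73 ± 0.17 (adjusted p = 0.00482). Replicates lay close together in both groups. SLC2A1, encoding the widely used glucose transporter GLUT1, had 36.5 and 62.5 on the LPS arrays, against 54.5 and 51.4 on the resting arrays, with overlapping groups (log2 difference -0.15 ± 0.29, adjusted p = 0.851). The SLC2A1 probe lay below the median probe intensity on every array, so a change of this gene may be poorly measured. The calls of SLC2A3 and SLC16A3 ended without resting replicate 1 (adjusted p = 0.0687 and 0.113) and without resting replicate 2 (0.0737 and 0.05995), which left 1 resting array assumed to vary like the other groups.

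**Figure D2:**
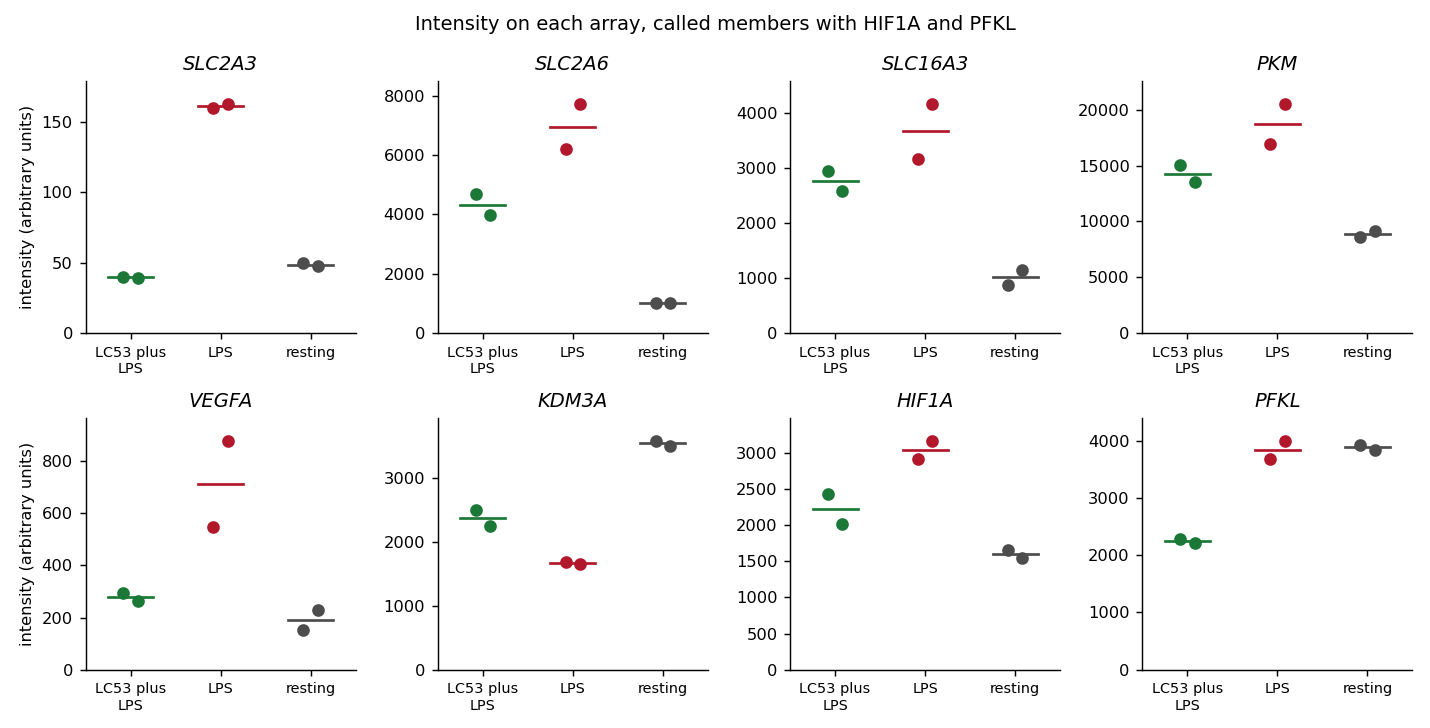
Probe intensity (y axis, arbitrary units, own scale for each gene) on each array of the LC53 plus LPS, LPS and resting groups (x axis). Points are arrays, with replicate 1 left of replicate 2, and bars are means of 2 arrays. SLC2A6, SLC16A3 and PKM were highest on the LPS arrays and lowest on the resting arrays, KDM3A was lowest on the LPS arrays, and SLC2A3 lay at 39.9 and 39.1 on the LC53 plus LPS arrays, near the resting arrays.

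Pyruvate kinase, the enzyme that makes pyruvate in the last step of glycolysis, is encoded by PKM. Its intensities were 16906 and 20524 on the LPS arrays, against 8580 and 9153 on the resting arrays. The log2 difference was 1.07 ± 0.20 (adjusted p = 0.0338), or 2.10-fold, with no overlap. VEGFA, encoding a vascular growth factor and a standard hypoxia-inducible gene, had 548 and 879 on the LPS arrays, against 154 and 229 on the resting arrays. That gave a log2 difference of 1.89 ± 0.32 (adjusted p = 0.0262), and the groups were apart despite wide spread within each. A second VEGFA probe gave 1.12 (adjusted p = 0.021).

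KDM3A encodes a histone demethylase that hypoxia induces. It fell to 1685 and 1651 on the LPS arrays, against 3577 and 3501 on the resting arrays, a log2 difference of -1.08 ± 0.18 (adjusted p = 0.0235). The groups were far apart and each was tight. Without resting replicate 1 or 2, the calls of PKM (adjusted p = 0.301 and 0.238), VEGFA (0.178 and 0.0785) and KDM3A (0.250 and 0.224) ended. They also ended without either LC53 plus LPS array, which enters only the estimate of spread (0.0903 for PKM, 0.0605 for VEGFA and 0.07225 for KDM3A), and for PKM and VEGFA without LPS replicate 2 (0.0513 and 0.0564).

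HIF1A itself, encoding the oxygen-regulated subunit, had 2912 and 3166 on the LPS arrays, against 1657 and 1538 on the resting arrays. The groups did not overlap, and the log2 difference of 0.93 ± 0.19 (95% interval 0.45 to 1.41) missed the threshold at an adjusted p of 0.0516. Its second probe gave 1.37 (adjusted p = 0.040), and the gene was called with quantile normalization (adjusted p = 0.0146) and with 5 other alternatives. EGLN1, the main prolyl hydroxylase gene, had 2704 and 2839 on the LPS arrays, against 3391 and 4847 on the resting arrays (log2 difference -0.55 ± 0.24, adjusted p = 0.299). The second EGLN1 probe gave -0.81 ± 0.24 (adjusted p = 0.128). EGLN3, an inducible hydroxylase gene, was near the bottom of the scale on every array, between 2.72 and 4.81.

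The hexokinases trap glucose in the cell, and none of their genes passed the test after LPS. For the hexokinase gene HK1, intensities were 3341 and 3108 on the LPS arrays, against 2643 and 3251 on the resting arrays, and the groups overlapped. HK2, the hexokinase gene most tied to hypoxia, had 734 and 685 on the LPS arrays, against 928 and 1085 on the resting arrays (log2 difference -0.50 ± 0.20, adjusted p = 0.242). HK3, a hexokinase gene of myeloid cells, had 56.2 and 93.3 on the LPS arrays, against 144 and 157 on the resting arrays. Both HK2 and HK3 were thus lower on each LPS array than on each resting array, but neither passed (HK3 -1.05 ± 0.28, adjusted p = 0.0943). HK3 was called lower with quantile normalization (adjusted p = 0.00439), median centring (0.010), cyclic loess (0.00741), without dim probes (0.0363) and without LPS replicate 2 (-1.42, 0.0247).

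PFKL and PFKP encode phosphofructokinase, which commits sugar to glycolysis. PFKL had 3672 and 3999 on the LPS arrays, against 3921 and 3844 on the resting arrays, and PFKP had 3967 and 3691 on the LPS arrays, against 4236 and 4671 on the resting arrays. Their log2 differences were -0.02 ± 0.17 and -0.22 ± 0.19. PFKFB3 and PFKFB4, which encode enzymes that set the level of the phosphofructokinase activator fructose-2,6-bisphosphate, had differences of -0.11 ± 0.20 and -0.26 ± 0.20. PFKFB3 had 267 and 338 on the LPS arrays, against 327 and 322 on the resting arrays, and PFKFB4 had 153 and 193 on the LPS arrays, against 202 and 210 on the resting arrays. ALDOC, encoding aldolase C, had a difference of -0.90 ± 0.22 (adjusted p = 0.0745) and passed with quantile normalization (0.00691), median centring (0.0214), cyclic loess (0.0103), the offset of 50 (0.0270), without dim probes (0.0273) and without LPS replicate 2 (-1.12, 0.0329). GPI, encoding glucose-6-phosphate isomerase, had -0.41 ± 0.17 and passed with the offset alone (adjusted p = 0.0294).

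In lower glycolysis, PGK1, encoding phosphoglycerate kinase, had 610 and 995 on the LPS arrays, against 638 and 616 on the resting arrays, so the groups overlapped. GAPDH was at 40756 and 45574 on the LPS arrays, against 36124 and 44892 on the resting arrays, and the differences of TPI1, GAPDH and ENO2 lay between -0.14 and 0.13. LDHA, the lactate dehydrogenase subunit gene induced by hypoxia, had 25843 and 33221 on the LPS arrays, against 36808 and 37604 on the resting arrays (log2 difference -0.34 ± 0.22, adjusted p = 0.470). PDK1, encoding a kinase that inhibits pyruvate dehydrogenase, had 472 and 497 on the LPS arrays, against 587 and 638 on the resting arrays. PDK1 was lower on both LPS arrays, with a log2 difference of -0.34 ± 0.18 (adjusted p = 0.387).

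Among the other hypoxia-inducible genes, ANKRD37 was dim and had the largest difference after VEGFA, 1.16 ± 0.27 (adjusted p = 0.0695), at 31.2 and 43.3 on the LPS arrays, against 14.9 and 18.2 on the resting arrays. ANKRD37 was called with quantile normalization, median centring and cyclic loess (adjusted p = 0.0204, 0.0126 and 0.0176). BNIP3, a mitophagy gene, had 373 and 405 on the LPS arrays, against 382 and 434 on the resting arrays, and NDRG1, a stress-responsive gene, had 822 and 941 on the LPS arrays, against 1015 and 1140 on the resting arrays. CA12, a carbonic anhydrase gene, had 180 and 290 on the LPS arrays, against 162 and 217 on the resting arrays, with overlap. Its second, dimmer probe had 51.0 and 49.0 on the LPS arrays, against 20.8 and 27.2 on the resting arrays, without overlap (1.07 ± 0.22, adjusted p = 0.0510). On the brightest probe of each, BNIP3L, P4HA1, CA9, CA12, BNIP3 and NDRG1 had differences between -0.29 and 0.58. Of the 28 measured members that were not called, 16 had a 95% interval within 1 log2 unit of 0 on both sides, while the interval of the other 12 reached past it.

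LC53 plus LPS against LPS cells asked how the compound changed the list in LPS-treated cells. This comparison shares the LPS arrays with the one above, so a gene's differences in these comparisons are not independent. SLC2A3 fell and no other member passed, which is 2.86% of the 35 members against 3.14% of all genes called, with 0.882% of all genes higher and 2.26% lower. Over all probes, 218 were called higher and 616 lower, and this balance turned without LPS replicate 2, to 1695 higher and 623 lower, with SLC2A3 again the only member called. At an unadjusted limma p below 0.05, 8 of 35 members passed, against 3654 of all 18255 genes. The arrays did not overlap for 16 members, 7 higher and 9 lower, against 48.2% of all genes. The members' median difference was 0.0085 and that of all genes 0.16. Median centring moved both downwards, to -0.12 for the members and 0.03 for all genes. The 1 lower call became 2 higher and 5 lower with quantile normalization, 1 higher and 5 lower with cyclic loess, and 0 higher and 3 lower with median centring.

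SLC2A3 had 39.9 and 39.1 on the LC53 plus LPS arrays, against 159 and 163 on the LPS arrays. The log2 difference was -2.03 ± 0.17 (95% interval -2.45 to -1.61, limma adjusted p = 0.00686), a 4.08-fold lower intensity, and replicates lay close together. The LC53 plus LPS values lay below the median probe intensity of their arrays, so the fold depends on background. With the offset of 50 the difference was -1.24, and the gene was still called. Without LC53 plus LPS replicate 1 or 2 the adjusted p was 0.0678 and 0.0812, so the call ended with either array left out. A second SLC2A3 probe had 19.9 and 10.0 on the LC53 plus LPS arrays and 37.5 and 111.5 on the LPS arrays, a log2 difference of -2.19 (adjusted p = 0.173). SLC2A14, a close relative of SLC2A3 in sequence, had 67.04 and 64.7 on the LC53 plus LPS arrays and 40.6 and 71.2 on the LPS arrays.

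The 4 other members that LPS had raised all had a lower mean on the LC53 plus LPS arrays than on the LPS arrays, with none passing. They were picked as high on these same LPS arrays, and KDM3A as low on them. That choice alone favours differences of the opposite sign here, so the shared direction is a description and not a test of LC53. SLC2A6 had 4679 and 3966 on the LC53 plus LPS arrays, against 6188 and 7724 on the LPS arrays (log2 difference -0.68 ± 0.21, 95% interval -1.19 to -0.17, adjusted p = 0.172). VEGFA had 293 and 263 on the LC53 plus LPS arrays, against 548 and 879 on the LPS arrays (-1.32 ± 0.32, interval -2.10 to -0.54, adjusted p = 0.106). These groups did not overlap, and both genes were called with quantile normalization (adjusted p = 0.0223 and 0.0195) and cyclic loess (0.0180 and 0.0144), and VEGFA also with median centring (0.00870) and without dim probes (0.0385). SLC16A3 had 2933 and 2585 on the LC53 plus LPS arrays, against 3164 and 4158 on the LPS arrays (-0.40 ± 0.24, adjusted p = 0.424). PKM had 15010 and 13523 on the LC53 plus LPS arrays, against 16906 and 20524 on the LPS arrays (-0.39 ± 0.20, adjusted p = 0.352). Their LC53 plus LPS arrays also lay below both LPS arrays, and PKM was called lower with quantile normalization (-0.54, adjusted p = 0.0402) and cyclic loess (-0.56, 0.0406). KDM3A, which LPS had lowered, had 2493 and 2244 on the LC53 plus LPS arrays, against 1685 and 1651 on the LPS arrays (0.50 ± 0.18, adjusted p = 0.219), and was called with the offset of 50 (0.0336).

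**Figure D3:**
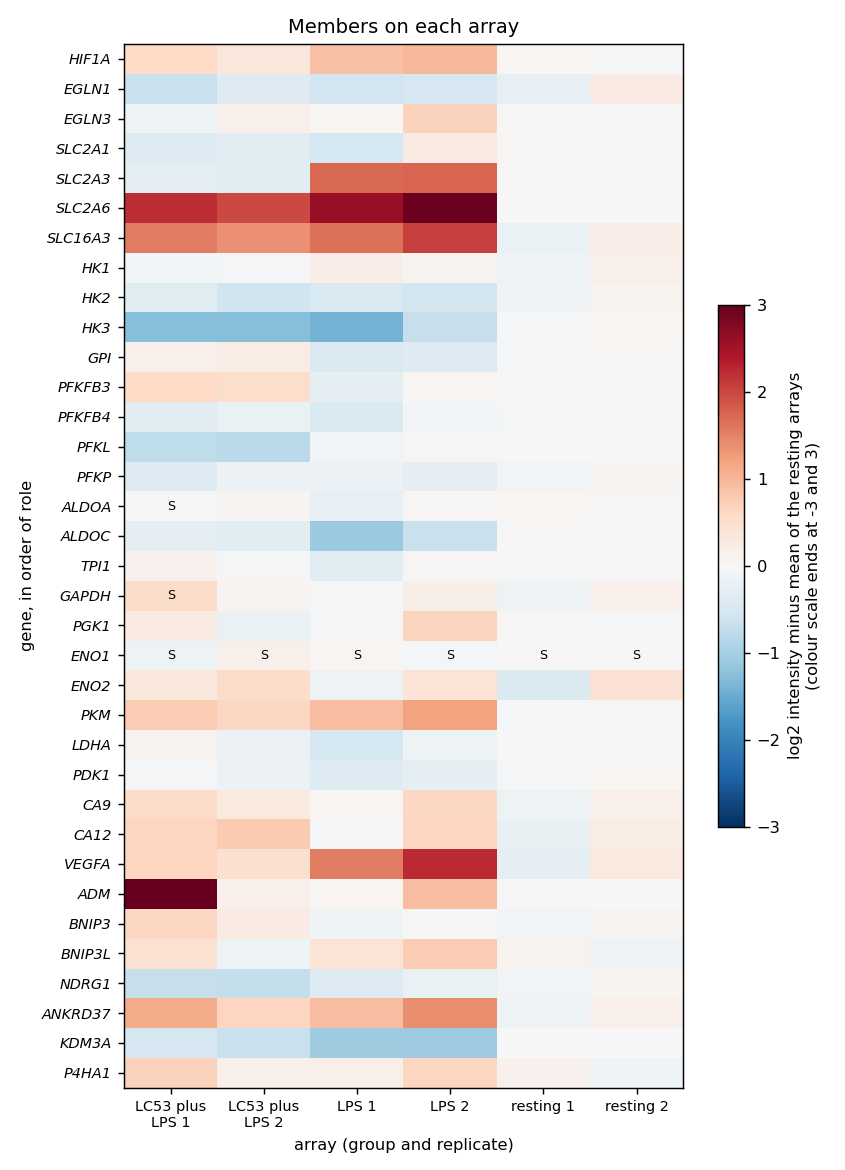
Log2 intensity of each member (y axis, in order of role) on each array (x axis) minus the mean of the 2 resting arrays, as colour, with S on saturated arrays. SLC2A6 and SLC16A3 are red on all LC53 plus LPS and LPS arrays, SLC2A3 is red on the LPS arrays alone, and ADM is red on LC53 plus LPS replicate 1, where its intensity was 96.9 and its colour is at the end of the scale.

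HIF1A had 2433 and 2007 on the LC53 plus LPS arrays, against 2912 and 3166 on the LPS arrays (log2 difference -0.46 ± 0.19, adjusted p = 0.288), and the groups did not overlap. PFKL, the liver-type phosphofructokinase gene, had 2288 and 2215 on the LC53 plus LPS arrays, against 3672 and 3999 on the LPS arrays. Both LC53 plus LPS arrays lay below both LPS arrays. The difference of -0.77 ± 0.17 (interval -1.20 to -0.34) had an adjusted p of 0.0953, and PFKL was called with median centring (0.0474) and 4 other alternatives. Its second probe gave -0.92 (adjusted p = 0.060). PFKP had 3383 and 3943 on the LC53 plus LPS arrays and 3967 and 3691 on the LPS arrays, which overlapped.

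PFKFB3 had 493 and 466 on the LC53 plus LPS arrays, against 267 and 338 on the LPS arrays (log2 difference 0.67 ± 0.20, adjusted p = 0.165). GPI had 36021 and 37653 on the LC53 plus LPS arrays, against 24059 and 24703 on the LPS arrays (0.60 ± 0.17, adjusted p = 0.158). Neither group pair overlapped, and both genes were called with an offset of 50 added before the log (adjusted p = 0.0496 and 0.0153), and PFKFB3 also with quantile normalization (0.0297) and cyclic loess (0.0396). ALDOC had a difference of 0.59 ± 0.22 (adjusted p = 0.234) and was called with quantile normalization (0.0367). HK1, HK2, HK3 and PFKFB4 had differences between -0.22 and 0.02. SLC2A1, EGLN1, EGLN3, TPI1 and ENO2 had -0.20, 0.03, -0.36, 0.18 and 0.31. The second EGLN1 probe differed from the first, with 499 and 392 on the LC53 plus LPS arrays, against 230 and 316 on the LPS arrays (0.71 ± 0.24, adjusted p = 0.208). HK1 had 2764 and 2845 on the LC53 plus LPS arrays, HK2 781 and 659, HK3 61.6 and 62.5, and PFKFB4 167 and 180.

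LDHA had 39923 and 33108 on the LC53 plus LPS arrays, against 25843 and 33221 on the LPS arrays, and the groups overlapped (log2 difference 0.31 ± 0.22). PDK1 had 584 and 538 on the LC53 plus LPS arrays, against 472 and 497 on the LPS arrays, without overlap (0.21 ± 0.18, adjusted p = 0.554). PGK1 had 746 and 546 on the LC53 plus LPS arrays, inside the range of the LPS arrays at its upper value and below it at its lower one. For the saturated genes, ALDOA had 59353 (saturated) and 62441 on the LC53 plus LPS arrays and 49915 and 60232 on the LPS arrays, and GAPDH had 59354 (saturated) and 42461 on the LC53 plus LPS arrays and 40756 and 45574 on the LPS arrays. Their differences of 0.15 and 0.22 are therefore lower bounds, as are 0.05 and 0.32 against resting cells, where ALDOA had 61412 and 56509. A second ALDOA probe, not saturated, had 615 and 511 on the LC53 plus LPS arrays, compared with 345 and 447 for LPS and 552 and 567 for resting cells. Its differences were 0.51 against LPS cells (adjusted p = 0.288) and 0.003 against resting cells. After LPS it gave -0.51 (adjusted p = 0.279), and the first probe -0.10.

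BNIP3 had 630 and 479 on the LC53 plus LPS arrays, against 373 and 405 on the LPS arrays (log2 difference 0.50 ± 0.22, adjusted p = 0.295). NDRG1 had 662 and 661 on the LC53 plus LPS arrays, against 822 and 941 on the LPS arrays (-0.41 ± 0.19, adjusted p = 0.311). Neither pair of groups overlapped. ADM, encoding the vasodilator adrenomedullin, had 96.9 and 1.12 on the LC53 plus LPS arrays, compared with 1.04 and 1.92 for LPS and 0.992 and 1.01 for resting cells. Its difference of 2.88 ± 1.92 rested on LC53 plus LPS replicate 1 alone, and without LC53 plus LPS replicate 2 the gene would be called (6.10, adjusted p = 0.0218). CA12 had 294 and 322 on the LC53 plus LPS arrays, against 180 and 290 on the LPS arrays, a difference of 0.43 ± 0.29, while its second probe gave -0.83, the opposite sign. CA9, BNIP3L, ANKRD37 and P4HA1 had differences between -0.44 and 0.08. Of 31 measured members not called, 18 had a 95% interval within 1 log2 unit of 0.

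LC53 plus LPS against resting cells asked where the list stood after both agents, relative to neither. SLC2A6 and SLC16A3 rose and no member fell, which is 5.71% of the 35 members against 3.53% of all genes called, with 2.03% of all genes higher and 1.51% lower. At an unadjusted limma p below 0.05, 9 of 35 members passed, against 3250 of all 18255 genes. For 25 members the arrays did not overlap, 13 higher and 12 lower, against 59.9% of all genes. The members' median difference was 0.04 and that of all genes 0.10. The split of 2 higher and 0 lower became 3 and 4 with quantile normalization, 3 and 3 with cyclic loess, and 2 and 2 with median centring.

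SLC2A6 was at 4679 and 3966 on the LC53 plus LPS arrays, against 1011 and 1009 on the resting arrays, a log2 difference of 2.09 ± 0.21 (limma adjusted p = 0.00987), or 4.27-fold. SLC16A3 was at 2933 and 2585 on the LC53 plus LPS arrays, against 877 and 1149 on the resting arrays, a difference of 1.46 ± 0.24 (adjusted p = 0.0422). Both stood well above the resting arrays on each LC53 plus LPS array. Without resting replicate 1 or 2, or without LC53 plus LPS replicate 1 or 2, both calls ended: adjusted p was 0.117, 0.109, 0.0919 and 0.0731 for SLC2A6, and 0.348, 0.191, 0.248 and 0.196 for SLC16A3.

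SLC2A3, at 39.9 and 39.1 on the LC53 plus LPS arrays and 49.6 and 47.4 on the resting arrays, had a log2 difference of -0.30 ± 0.17 (95% interval -0.72 to 0.13, adjusted p = 0.475). Its second probe gave 0.68 (adjusted p = 0.682), the opposite sign. PKM had 0.68 ± 0.20 (adjusted p = 0.159), VEGFA 0.57 ± 0.32 (0.463), HIF1A 0.47 ± 0.19 (0.316) and KDM3A -0.58 ± 0.18 (0.182). Their LC53 plus LPS arrays lay between the LPS and the resting arrays for each of these 4 genes. PKM was called with the offset of 50, quantile normalization and cyclic loess (adjusted p = 0.0420, 0.0437 and 0.0444), and KDM3A with the offset and quantile normalization (0.0237 and 0.0481).

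SLC2A1 had 40.8 and 42.4 on the LC53 plus LPS arrays and 54.5 and 51.4 on the resting arrays (log2 difference -0.35 ± 0.29). HK3 had the lowest difference, -1.28 ± 0.28 (adjusted p = 0.0829), and was called with median centring (adjusted p = 0.00513) and 5 other alternatives, as well as without LPS replicate 1 or 2 (0.0266 for each). PFKL was at 2288 and 2215 on the LC53 plus LPS arrays, against 3921 and 3844 on the resting arrays, a difference of -0.79 ± 0.17 (adjusted p = 0.0880), and was called with median centring (0.0496) and 4 other alternatives. The second PFKL probe was called at -1.09 (adjusted p = 0.036). EGLN1 had 2558 and 3120 on the LC53 plus LPS arrays, against 3391 and 4847 on the resting arrays (-0.52 ± 0.24, adjusted p = 0.377). The second EGLN1 probe had 499 and 392 on the LC53 plus LPS arrays, against 478 and 468 on the resting arrays, with overlap (-0.10 ± 0.24). NDRG1 had -0.70 ± 0.19 (adjusted p = 0.133) and was called with the offset, quantile normalization and cyclic loess (0.0276, 0.0214 and 0.0253). Of the 32 members not saturated on any array, 15 had less than a 1.5-fold ratio between the highest and the lowest of the 3 group means, among them HK1, PFKFB4, TPI1 and LDHA. That share was not computed over all genes, so the count describes these members alone. Of the 8 members with a second probe, the signs agreed for 8, 7 and 7 in the 3 comparisons, the exceptions being CA12 and SLC2A3 as given above.

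A list of 96 other measured genes of the same pathways had 9 called genes after LPS (9.38%), 2 higher and 7 lower, with a median log2 difference of -0.17. In LC53 plus LPS against LPS cells it had 4 called (4.17%), 2 higher and 2 lower, with a median of 0.15, and in LC53 plus LPS against resting cells 2 called, both lower, with a median of 0.03. Without either resting array these counts were 3, 0 and 0, and without either LC53 plus LPS array 6, 0 and 0. Without LPS replicate 1 they were 7, 2 and 5, and without LPS replicate 2 they were 12, 8 and 5. BHLHE40, encoding a hypoxia-inducible transcriptional repressor, had 265 and 211 on the LC53 plus LPS arrays, compared with 749 and 954 for LPS and 148 and 143 for resting cells. It rose with LPS by 2.54 ± 0.22 (limma adjusted p = 0.00311) and was lower in LC53 plus LPS than in LPS cells, by -1.84 ± 0.22 (adjusted p = 0.0192). TMEM45A, a hypoxia-inducible membrane protein gene, had 4786 and 4236 on the LC53 plus LPS arrays, compared with 12788 and 14139 for LPS and 2846 and 2949 for resting cells. Its differences were 2.21 ± 0.18 after LPS (adjusted p = 0.0026) and -1.58 ± 0.18 between LC53 plus LPS and LPS cells (adjusted p = 0.0175).

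**Figure D4:**
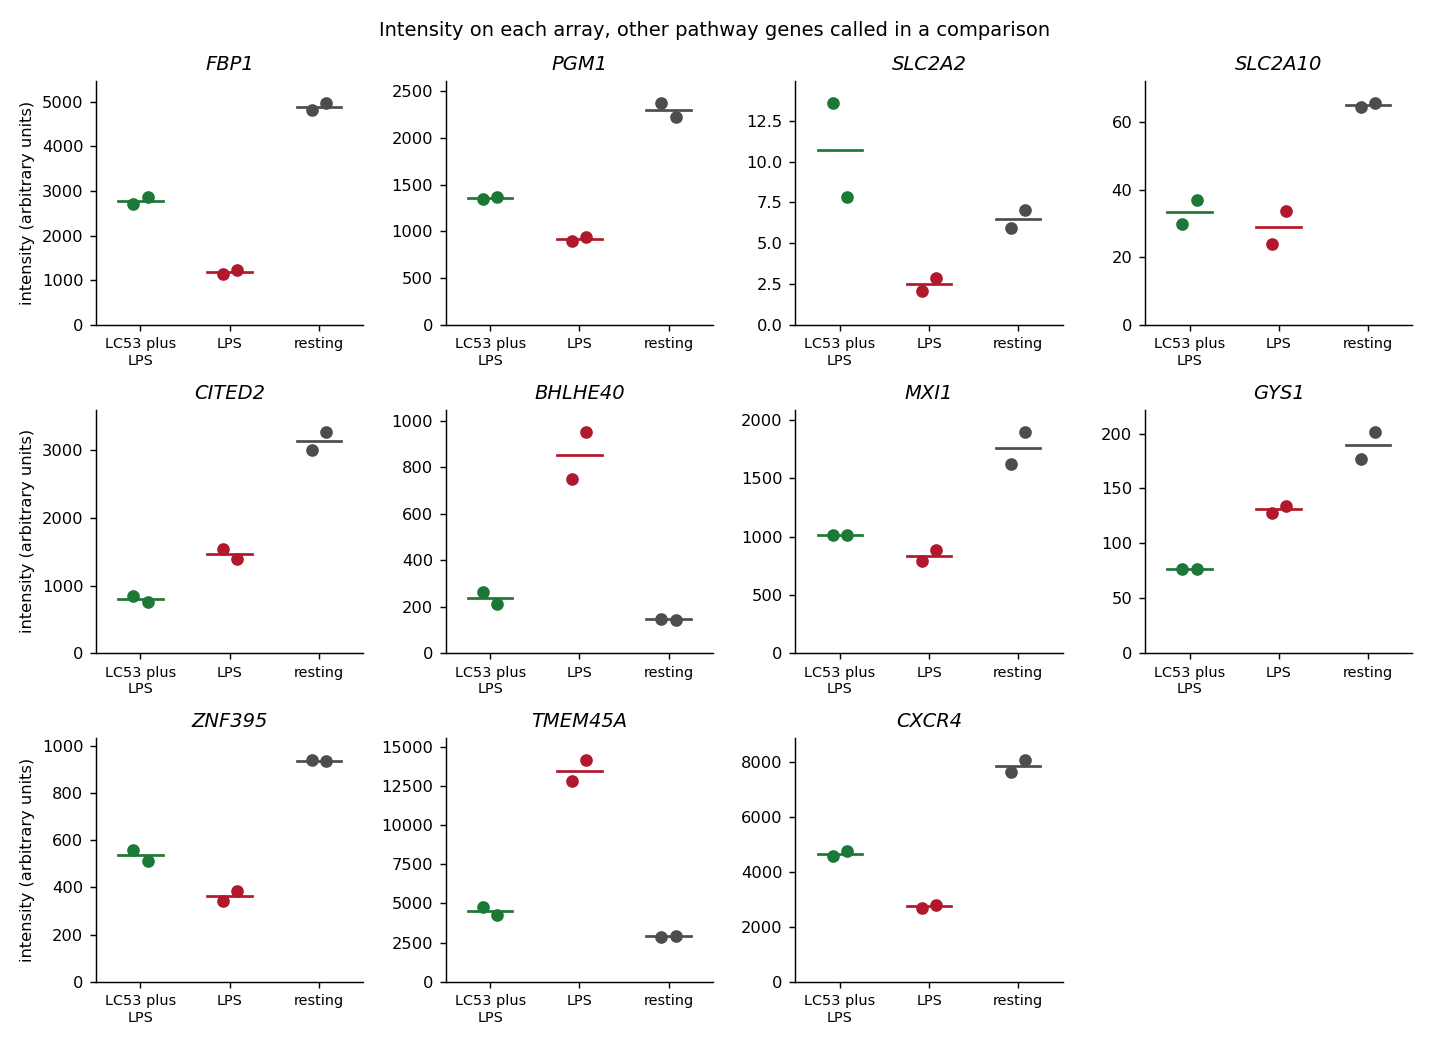
Probe intensity (y axis, arbitrary units, own scale for each gene) of the 11 other pathway genes called in at least 1 comparison, on each array of the LC53 plus LPS, LPS and resting groups (x axis). Points are arrays and bars are means of 2 arrays. BHLHE40 and TMEM45A were highest on the LPS arrays, while FBP1, PGM1, ZNF395 and CXCR4 were lowest there and highest on the resting arrays.

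FBP1 encodes fructose-1,6-bisphosphatase, which runs the phosphofructokinase step backwards in gluconeogenesis. It had 2704 and 2863 on the LC53 plus LPS arrays, compared with 1131 and 1236 for LPS and 4811 and 4964 for resting cells. FBP1 fell after LPS (-2.05 ± 0.18, adjusted p = 0.00297) and was higher in LC53 plus LPS than in LPS cells (1.23 ± 0.18, adjusted p = 0.0293). CXCR4, a hypoxia-inducible chemokine receptor gene, had 4593 and 4763 on the LC53 plus LPS arrays, compared with 2706 and 2816 for LPS and 7638 and 8085 for resting cells. LPS lowered it (-1.51 ± 0.17, adjusted p = 0.00774), and LC53 plus LPS minus LPS was 0.76 ± 0.17 (adjusted p = 0.0954).

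Also lower after LPS were PGM1, encoding a phosphoglucomutase of glycogen metabolism (-1.32 ± 0.17), ZNF395, a hypoxia-inducible zinc finger gene (-1.36 ± 0.18), and SLC2A10, encoding the transporter GLUT10 (-1.19 ± 0.24), with adjusted p of 0.0117, 0.0121 and 0.0453. MXI1 (-1.07 ± 0.19, adjusted p = 0.0305), named after its values were seen, encodes an antagonist of MYC. CITED2, encoding a protein that competes with hypoxia-inducible factor for the coactivator p300/CBP, had 839 and 761 on the LC53 plus LPS arrays, compared with 1546 and 1395 for LPS and 2995 and 3271 for resting cells. It was called after LPS (-1.09 ± 0.18, adjusted p = 0.0266) and in LC53 plus LPS against resting cells (-1.97 ± 0.18, adjusted p = 0.00874). GYS1, the muscle glycogen synthase gene, was also lower in LC53 plus LPS than in resting cells (-1.29 ± 0.18, adjusted p = 0.0265). SLC2A2 was called in LC53 plus LPS against LPS cells but was dim on every array, at 13.6 and 7.81 on the LC53 plus LPS arrays and 2.08 and 2.88 on the LPS arrays.

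The identity of the cells was checked with 12 measured myeloid markers, of which SPI1 was called higher (1.46) and MPO lower (-1.32) after LPS, and CSF1R lower in LC53 plus LPS than in LPS cells (-1.41). ELANE was saturated on all arrays and AZU1 on the LPS and resting arrays, and the summed intensity of the other 10 was 24013 and 19248 on the LC53 plus LPS arrays, compared with 19136 and 26417 for LPS and 24863 and 23961 for resting cells. Of 17 markers of other cell types, DCN and LUM, fibroblast matrix genes, were called higher after LPS and lower in LC53 plus LPS than in LPS cells. The summed intensity of these 17 was 7910 and 8325 on the LC53 plus LPS arrays, compared with 10759 and 11733 for LPS and 10156 and 11592 for resting cells. PECAM1, listed as endothelial, held much of this sum and was not called. It had 2970 and 2713 on the LC53 plus LPS arrays, compared with 5527 and 5715 for LPS and 5236 and 6114 for resting cells. Sums of the other types did not all fall, and that of the epithelial markers was 225 and 227, compared with 82.3 and 63.5 for LPS. DCN had 29.0 and 24.5 on the LC53 plus LPS arrays, compared with 112 and 160 for LPS and 11.9 and 10.1 for resting cells. EPCAM, an epithelial marker, had 147 and 174 on the LC53 plus LPS arrays, compared with 37.5 and 40.4 for LPS and 6.94 and 40.3 for resting cells, and was not called (adjusted p = 0.246 against LPS and 0.103 against resting cells). Every marker was above 0 on all arrays, and COL1A2 and CD3E were under 20 on each. The part of these markers in the results for the list was not tested.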

How the data were processed

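RNA of 6 THP-1 samples was measured on single-colour Cy5 arrays, per the labels' protocols after amplification with an amino allyl kit. The deposited table holds intensity on a linear scale. Dividing an array by its smallest positive value gave whole numbers (tolerance 0.02). These factors lay on either side of 1 within each group, between 0.906 and 1.12, so whether the 3 groups share a scale is unknown. Not given in the sources used here were the scanner, background correction, normalization and detection calls. Intensity was floored at 1 before log2, with no further normalization. Probes at or above 65500 whole-number units counted as saturated. Through the probe table and RefSeq genes, 24658 of 31741 probes had 1 symbol, 1002 more than 1, and 6081 no symbol. Each gene used the probe with the highest mean.

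One mean per group was fitted over all 6 arrays with limma 3.58.1 in R 4.3.3, with 2-sided moderated tests and Benjamini-Hochberg adjustment over all probes, called below 0.05. The step was also run on simulated data with independent noise and known changes in probes of middle intensity. Changes in dim probes and shifts of scale between arrays were not simulated. Alternatives changed the offset, normalization, filter on dim probes (all 3 group means under 50), probe rule, block, groups in the fit and each array. Values on every array are given for members called in a comparison, saturated members and a fixed panel of 25 members, and for other pathway genes called, at most the 5 highest and 5 lowest per comparison. The members and lists were chosen with earlier results of these data known. Of the lists, 35 of 36 members, 96 of 101 other pathway genes and 29 of 33 markers had a probe. Promoter windows came from a RefSeq table of GRCh38.p14. Tables and figures used Python 3.11.15, pandas 2.3.3 and matplotlib 3.10.9.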

Additional observations from a re-analysis of the deposited data

How the results depend on the processing

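No difference of a member changed sign past the threshold under any alternative, and the call of SLC2A6 after LPS held in all. Counts of calls depended on the scale, and the cause was not tested. Member calls after LPS, 6 on the deposited scale, numbered 10 with quantile normalization, with median centring and with cyclic loess, 3 with only those 2 groups in the fit, and 1 to 6 with 1 array left out. For LC53 plus LPS against LPS, 1 call became 5 with an offset of 50, 7, 3 and 6 with quantile, median and loess scaling, 3 without dim probes, and 0 to 1 with 1 array left out. For LC53 plus LPS against resting, 2 became 7, 7, 4, 6 and 4 with these same 5 alternatives in that order, 1 with the replicate block, and 0 to 3 with 1 array left out. Other pathway genes, in the order offset, quantile, median, loess and without dim probes, numbered 23, 29, 18, 25 and 18 after LPS (9 on the deposited scale), 13, 18, 10, 16 and 11 in LC53 plus LPS against LPS (4), and 17, 22, 12, 22 and 14 in LC53 plus LPS against resting (2). With only 2 groups they numbered 0 and 5 in the last 2 comparisons, with the replicate block 1 and 1, and with 1 array left out 3 to 12, 0 to 8 and 0 to 5. Probes called, in the same order, were 3519, 5157, 3802, 5032 and 3207 after LPS (2069), 2367, 3755, 2416, 3585 and 1912 in LC53 plus LPS against LPS (834), and 2198, 3494, 2440, 3370 and 1947 in LC53 plus LPS against resting (941). With only 2 groups in the fit they were 1200, 305 and 1555, with the replicate block 1492, 389 and 481, and with 1 array left out 479 to 2579, 91 to 2318 and 75 to 1555. Of the probes called after LPS, 61.7% were higher on the deposited scale, 49.5% with quantile normalization, 50.3% with the offset, 38% without LPS replicate 2 and 87.4% without resting replicate 2. In LC53 plus LPS against LPS, 26.1% were higher on the deposited scale, 43.9% with quantile normalization, 46.4% with the offset and 73.1% without LPS replicate 2. In LC53 plus LPS against resting, 59.2% were higher on the deposited scale, 43.5%, 44.1% and 44.7% with quantile, median and loess scaling, and 88.2% without resting replicate 2. The labels number the arrays alike in each group, but deviations of equal numbers correlated at 0.06 (LPS and resting), -0.08 (LC53 plus LPS and LPS) and 0.20 (LC53 plus LPS and resting), so the numbers were not taken to pair the arrays. With the replicate block, PKM after LPS had an adjusted p of 0.0630, SLC16A3 in LC53 plus LPS against resting 0.0750, and no other member call ended. Without dim probes EGLN3, CA9, ANKRD37 and ADM were not tested. Saturation and 2 arrays per group limit the rest.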
